A study of Mus musculus with 2 samples.

Results

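The histone mark H3K27me3 was examined at the cadherin genes and the nonclustered protocadherin genes of the mouse in intact sciatic nerve. Members were all RefSeq protein-coding genes whose symbol is Cdh or Pcdh followed only by digits, which gave 34 genes (23 Cdh and 11 Pcdh) of 21887 protein-coding genes in all. The clustered protocadherins (Pcdha, Pcdhb and Pcdhg) were not members. The tissue came from male C57/BL6 mice aged 8 weeks and the mark was read by ChIP-seq (sequencing of DNA pulled down with an antibody to the mark), with 1 H3K27me3 ChIP library and 1 input library that was not analysed here. Each value is therefore from 1 ChIP library and has no replicate check. No genotype or treatment differed between the libraries, and the labels do not say whether animals were pooled. No sorting step is described, so a peak carried by some of its cells and a weaker mark in all of them cannot be told apart. A gene was called marked when a deposited peak overlapped its annotated span or the 2 kb on either side by at least 1 bp. The authors' score of each peak was read as a number of reads, 1 read being 2.5735 score units, and the lowest peaks held 10 reads (exact 95% Poisson interval 4.8 to 18.4, counting error only).

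Cadherins are calcium-dependent adhesion proteins that bind the same or a related cadherin on the next cell. The classical cadherins (types I and II) reach the actin cytoskeleton through catenins, and their type I members carry the names of the tissues they were found in, such as E-cadherin of epithelia and N-cadherin of nervous tissue. The delta protocadherins are expressed most prominently in the developing nervous system. In peripheral nerve, E-cadherin lies at autotypic junctions of myelinating Schwann cells and N-cadherin at contacts between Schwann cells and axons. H3K27me3 (histone H3 trimethylated at lysine 27) is laid down by Polycomb repressive complex 2 and is associated with genes that are kept silent.

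H3K27me3 peaks lay at 15 of the 34 genes (44.1%, exact 95% interval 27.2 to 62.1), against 10.5% of all protein-coding genes. The other 19 members had no peak. Together the 15 marked genes held 46 peaks with 1077 reads. One gene, the type II cadherin Cdh22, held 18 of these peaks (39.1%) and 458 of these reads (42.5%), which left 28 peaks and 619 reads for the other 14. Of the 15 marked members, 5 had 1 peak, 6 had 2 and 4 had 3 or more. In 7 of them (Cdh1, Cdh2, Cdh3, Cdh7, Pcdh1, Pcdh10 and Pcdh19) no peak reached 20 reads, and a count restricted to peaks of at least 20 reads gave 8 of 34 (23.5%), against 5.46% of all protein-coding genes. No member peak lay within 2 kb of another protein-coding gene. Leaving out such peaks took the share of all protein-coding genes marked from 10.5% to 9.28%. Of the 46 member peaks, 17 lay within 2 kb of a long non-coding RNA gene. The matching share of all peaks was not computed, so this count has no background.

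**Figure D1:**
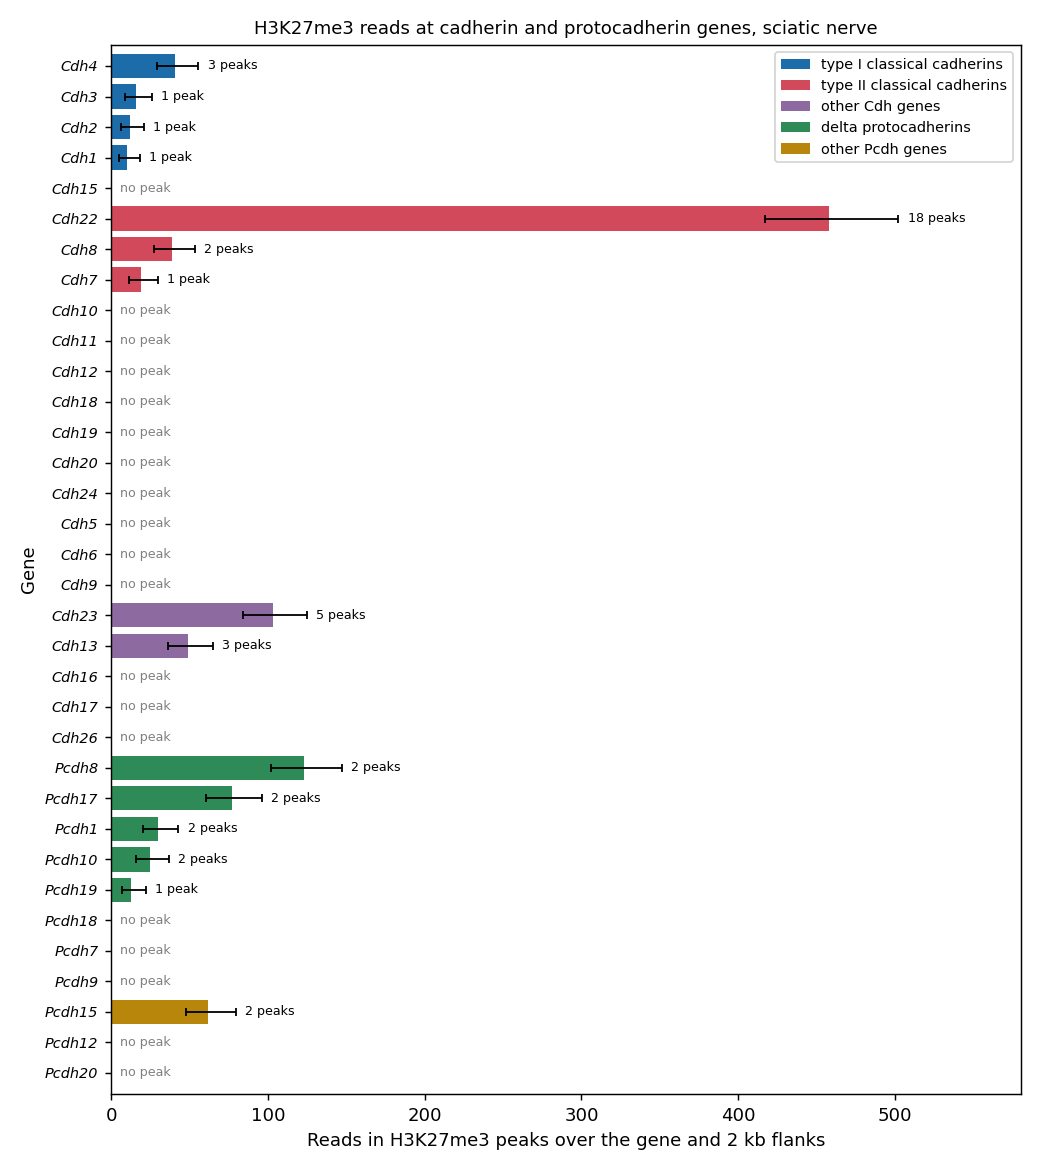
Reads in H3K27me3 peaks over each of the 34 genes and its 2 kb flanks (x axis, reads), grouped by subfamily (colours), with exact 95% Poisson intervals (lines, counting error only) and the number of peaks beside each bar. Cdh22 stood at 458 reads, the next member, Pcdh8, at 123, and 19 genes had no peak.

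The annotated span of these genes is long, with a median of 114.8 kb against 17.2 kb for all protein-coding genes, and a longer span gives more room for a peak. Of genes spanning 100 kb and over, 9 of 18 members were marked (50.0%), against 22.0% of all such protein-coding genes. Under 100 kb, 6 of 16 members were marked (37.5%), against 9.09%. By finer classes, 1 of 6 members under 20 kb was marked, against 8.33% of all genes of that span. The counts were 2 of 4 at 20 to 50 kb, against 9.01%, and 3 of 6 at 50 to 100 kb, against 12.8%. They were 3 of 7 at 100 to 200 kb, against 16.5%, and 4 of 6 at 200 to 500 kb, against 26.1%. At 500 kb and over, 2 of 5 members were marked (40.0%), against 43.2% of all genes, the one class in which the members' share was the lower. Counting only peaks within 2 kb of either gene end, 13 of 34 members were marked (38.2%), against 8.59% of all protein-coding genes. The 2 members lost by that count were Cdh13 and Cdh23, whose peaks lay inside the gene. The 15 marked members were the same without flanks, against 9.77% of all protein-coding genes, with flanks of 5 kb (11.7%), with at least 50% of a peak inside (10.3%) and with peaks near no other protein-coding gene (9.28%).

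**Figure D2:**
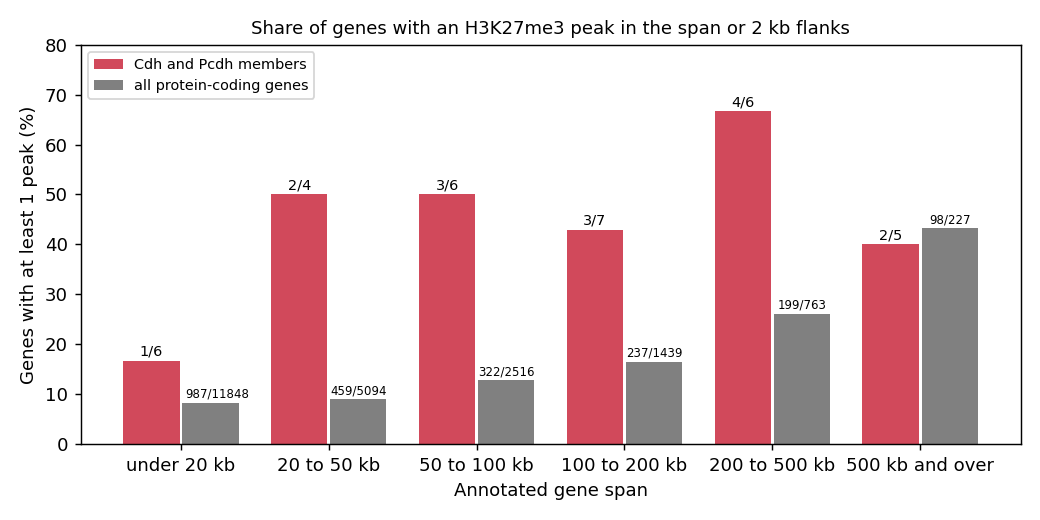
Share of genes with at least 1 H3K27me3 peak in the span or 2 kb flanks (y axis, percent) by class of annotated gene span (x axis), for the 34 members (red) and all protein-coding genes (grey), with the counts above the bars. The members' bar is the higher one in every class except the longest, where 2 of 5 members and 98 of 227 genes were marked.

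Among the type II classical cadherins, Cdh22 stood apart from the other members by the number of its peaks. Cdh22, first described as a cadherin of pituitary and brain, spans 123.4 kb (chr2:165111501-165234924, mm10) and runs on the minus strand. Its 18 peaks were the most at any of the 21887 protein-coding genes, ahead of Pax2, Casz1 and Skap1 with 12 each. By reads in peaks it ranked 21 of all protein-coding genes, with 458 reads (95% interval 417 to 502). Only 17 of 1439 protein-coding genes spanning 100 to 200 kb held 5 or more peaks (1.18%), and over all spans 2 of 34 members did (5.88%, Cdh22 and Cdh23), against 0.512% of all protein-coding genes.

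Peaks covered 16.7% of Cdh22 and its flanks, 21243 bp in all. The peak with the most reads lay over the 5′ end (70 reads, 2947 bp, chr2:165232622-165235568). A peak of 65 reads and 2572 bp lay over the 3′ end (chr2:165110025-165112596). The remaining 16 peaks, with 323 reads, were more than 2 kb from both ends. They included peaks of 54 reads at 22.69 kb, 36 reads at 12.60 kb and 32 reads at both 33.78 and 68.66 kb downstream of the 5′ end, measured to the peak centre. Of the 18 peaks, 7 held at least 20 reads and 5 held 10 or 11. Neighbouring peaks were separated by a median of 2917 bp, and one gap of 37848 bp lay in the 3′ part of the gene. Peaks less than 5 kb apart joined into domains of up to 16396 bp, which held 6 peaks. The 6 peaks centred 0.83 to 22.69 kb downstream of the 5′ end lay within 2 kb of the long non-coding RNA gene Gm36803 or Gm36748, and the other 12 lay near no other annotated gene.

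**Figure D3:**
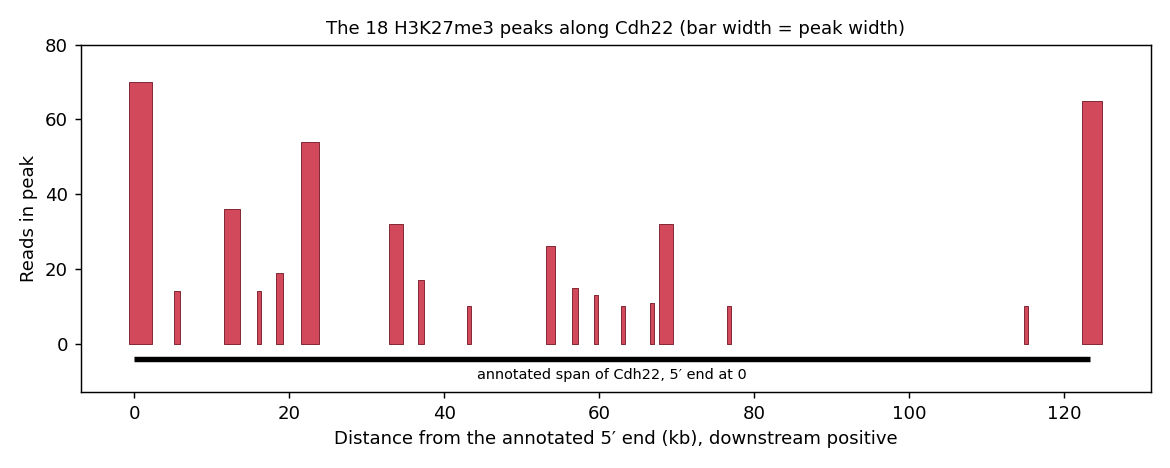
The 18 H3K27me3 peaks along Cdh22, by distance from the annotated 5′ end (x axis, kb) and reads per peak (y axis). Bar width is peak width, and the black line is the annotated span. The highest bars are at the 5′ end (70 reads) and the 3′ end (65 reads), with smaller peaks between them and a gap of 37848 bp in the 3′ part.

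In all, 3 of 13 type II genes were marked (23.1%, 5.04 to 53.8), or 2 of 12 without Cdh22, beside 10.5% of all protein-coding genes. The median span of the type II genes was 153.4 kb, and 16.5% of all genes spanning 100 to 200 kb were marked. Cdh8, an adhesion protein of synapses in the brain, had 2 peaks at its 5′ end with 27 and 12 reads, spanning 1149 and 626 bp in a gene of 393.2 kb. Cdh7 had 1 peak of 19 reads and 777 bp, 596 bp inside its 5′ end (chr1:109982833-109983609). No peak lay at Cdh5, the VE-cadherin of endothelium, at Cdh11, a cadherin of mesenchymal cells, or at Cdh19, a cadherin of the Schwann cell lineage. Cdh6, Cdh9, Cdh10, Cdh12, Cdh18, Cdh20 and Cdh24 were also without a peak.

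Type I classical cadherins were marked at 4 of 5 genes (80.0%, 28.4 to 99.5), against 10.5% of all protein-coding genes, with 10 to 41 reads at each. Cdh4 (R-cadherin) had 41 reads in 3 peaks, of which the one nearest a gene end had 20 reads and lay 939 bp inside the lower-coordinate end. Its other peaks, of 10 and 11 reads, lay 223906 and 23591 bp from the nearest end. Cdh3 (P-cadherin) had 1 peak of 16 reads, Cdh2 (N-cadherin) 1 of 12 reads and Cdh1 (E-cadherin) 1 of 10 reads. The Cdh1 peak had the shortest width and the lowest read number in the list, 500 bp and 10 reads. Cdh1 and Cdh3 are neighbours on chromosome 8, and each had its peak across the lower-coordinate end of the gene (chr8:106603212-106603711 and chr8:106510726-106511377). Cdh15, the M-cadherin of muscle, had none. Only Cdh4 remained when peaks under 20 reads were left out, and Cdh3 and Cdh4 when peaks below the median score were left out. Over all subfamilies, that restriction left 12 of 34 members marked, against 7.08% of all protein-coding genes. The intervals of the type I and type II shares overlap.

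The remaining Cdh genes code for cadherins of unusual form. Cdh23, which forms the tip links of hair cells together with Pcdh15, had 103 reads in 5 peaks, none within 2 kb of an end. The strongest had 61 reads over 1866 bp (chr10:60684994-60686859), centred 10.59 kb downstream of the 5′ end, with one of 10 reads beside it at 7.54 kb. Both of these lay within 2 kb of the long non-coding RNA gene Gm51803. The other 3, of 10, 12 and 10 reads, lay together near the middle of the gene, 218.99 to 224.63 kb from the 5′ end. Cdh13 (T-cadherin, held in the membrane by a lipid anchor) had 49 reads in 3 peaks, the strongest with 26 reads and 915 bp. This strongest peak lay within 2 kb of the long non-coding RNA gene Gm51555. All 3 Cdh13 peaks lay more than 100 kb from either end of the 1184.9 kb span of the gene. Cdh16 of kidney, Cdh17 of liver and intestine, and Cdh26 had no peak.

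The delta protocadherins that meet the symbol rule were marked at 5 of 8 genes (62.5%, 24.5 to 91.5), against 10.5% of all protein-coding genes. Pcdh11x, a further delta protocadherin, does not meet the rule and is counted below with other superfamily genes. It had no peak over its span of 620.4 kb. Pcdh8, the paraxial protocadherin, had the most reads of any member after Cdh22 (123, 95% interval 102 to 147). One of its peaks (97 reads, 3685 bp, chr14:79767854-79771538) covered most of the 4.5 kb gene, including the 5′ end, and another of 26 reads lay 1974 bp upstream. Peaks covered 43.5% of Pcdh8 and its flanks, the largest share among members. The median covered share was 0.705% over the marked members, against 3.71% over all marked protein-coding genes. The median spans of these sets were 123.4 and 27.6 kb. Pcdh17 had 77 reads in 2 peaks, 67 of them in a peak of 2670 bp that began 2066 bp inside the gene. Pcdh1 had 30 reads in 2 peaks of 15, Pcdh10 had 25 reads in peaks of 15 and 10, and Pcdh19 had 13 reads in 1 peak. Pcdh19, a gene of female-limited epilepsy in humans, is the only member on the X chromosome, where 1.55% of protein-coding genes were marked (15 of 966), against 11.1% on the autosomes. Pcdh7, Pcdh9 and Pcdh18 had no peak. Restricting the count to peaks of 20 or more reads left 2 of 8 delta protocadherins marked (25.0%), against 5.46% of all protein-coding genes. Of the other 3 protocadherins, Pcdh15 had 62 reads in 2 peaks, of 22 and 40 reads, 208 and 2793 bp inside the 5′ end of its 1553.6 kb span, and Pcdh12 and Pcdh20 had none.

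Most marked members with a listed strand carried a peak within 2 kb of the annotated 5′ end, as did most marked protein-coding genes. A strand was listed for 22 of the 34 members. Of the 9 marked ones among them, 8 had a peak within 2 kb of the 5′ end (88.9%), the exception being Cdh23. Over all protein-coding genes the share was 71.7% of marked genes with a listed strand (1222 of 1705). The 8 members include Pcdh15, whose only listed start lies 725590 bp inside its annotated 5′ end. As a call of its own, a peak within 2 kb of the 5′ end was found at 8 of 22 members (36.4%), against 6.99% of all protein-coding genes with a strand. Of the 10 member peaks in these windows, 2 lay upstream of the end, 3 lay over it and 5 lay downstream (50.0%), against 39.8% downstream over all protein-coding genes.

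**Figure D4:**
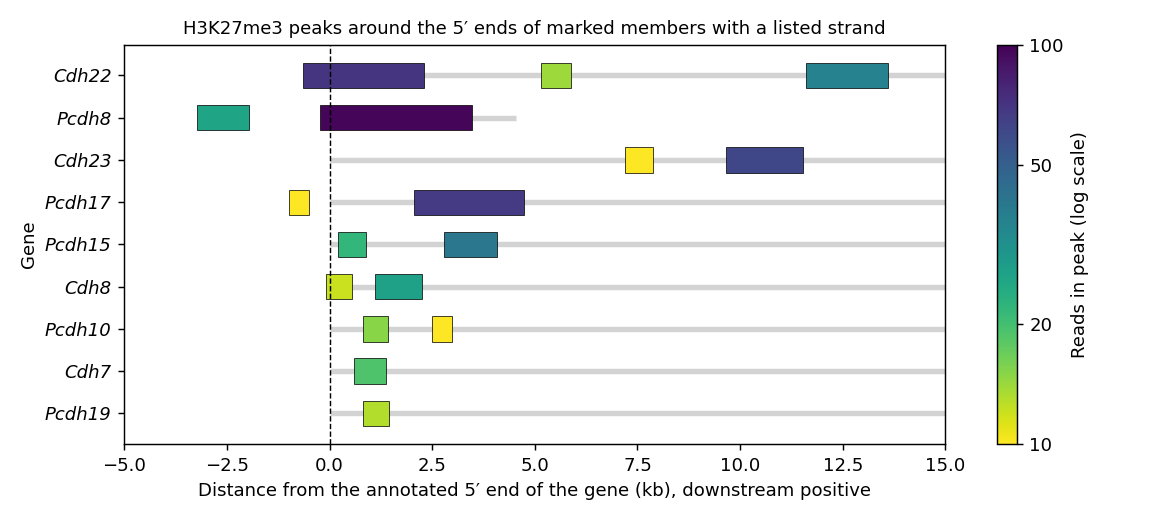
H3K27me3 peaks (boxes to scale) around the annotated 5′ end (dashed line) of the 9 marked members with a listed strand, by distance in kb (x axis). Colour gives the reads per peak on a log scale, and grey lines mark the annotated span within the window. Peaks cross the 5′ end at Cdh22, Pcdh8 and Cdh8, and at Cdh23 the nearest peak begins 7195 bp inside the gene.

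Promoter sequences from RefSeq (GRCm38.p6, the same assembly as mm10) reach from 250 bases before to 50 after a gene start and were listed for 22 members. Those shown are the 4 marked members with the most reads within 2 kb of the 5′ end among those whose listed start lies within 2 kb of that end, which leaves out Pcdh15 (22 reads there), and, chosen after their values were seen, the unmarked members with the highest and the lowest CpG ratio. Sequences run 5′ to 3′ on the gene's own strand, and capitals mark CpG dinucleotides. Peaks covered 276 of the 300 bases of the Pcdh8 window (chr14:79771263-79771562, minus strand), all 300 of Cdh22 (chr2:165234688-165234987, minus), 136 of Cdh8 (chr8:99416422-99416721, minus) and 117 of Cdh7 (chr1:109982650-109982949, plus, the first of its 3 listed starts). The windows of Cdh20 (chr1:104768270-104768569, plus) and Cdh10 (chr15:18820079-18820378, plus) had no peak. In all, 4 of the 22 windows of members had a peak, against 4.40% of all listed protein-coding windows. Among marked genes with a window, 4 of 9 members had a peak in it, as did 769 of 1705 protein-coding genes.
Pcdh8: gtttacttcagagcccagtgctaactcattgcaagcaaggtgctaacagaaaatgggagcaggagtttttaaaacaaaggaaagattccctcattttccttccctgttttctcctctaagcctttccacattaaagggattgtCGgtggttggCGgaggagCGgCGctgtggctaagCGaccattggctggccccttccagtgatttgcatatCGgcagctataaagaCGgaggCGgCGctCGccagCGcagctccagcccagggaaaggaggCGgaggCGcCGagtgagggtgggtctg
Cdh22: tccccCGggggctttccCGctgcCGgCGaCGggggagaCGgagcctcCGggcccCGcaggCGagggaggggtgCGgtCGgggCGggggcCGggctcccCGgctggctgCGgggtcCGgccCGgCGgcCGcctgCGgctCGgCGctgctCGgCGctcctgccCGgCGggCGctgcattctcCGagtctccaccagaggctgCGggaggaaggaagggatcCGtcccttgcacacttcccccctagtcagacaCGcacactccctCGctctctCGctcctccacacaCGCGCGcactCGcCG
Cdh8: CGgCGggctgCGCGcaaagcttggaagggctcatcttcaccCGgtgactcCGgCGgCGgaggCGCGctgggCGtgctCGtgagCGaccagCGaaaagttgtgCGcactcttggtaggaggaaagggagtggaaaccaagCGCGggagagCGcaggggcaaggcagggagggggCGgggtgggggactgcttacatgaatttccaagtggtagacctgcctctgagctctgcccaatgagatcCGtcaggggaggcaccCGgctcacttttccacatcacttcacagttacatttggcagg
Cdh7: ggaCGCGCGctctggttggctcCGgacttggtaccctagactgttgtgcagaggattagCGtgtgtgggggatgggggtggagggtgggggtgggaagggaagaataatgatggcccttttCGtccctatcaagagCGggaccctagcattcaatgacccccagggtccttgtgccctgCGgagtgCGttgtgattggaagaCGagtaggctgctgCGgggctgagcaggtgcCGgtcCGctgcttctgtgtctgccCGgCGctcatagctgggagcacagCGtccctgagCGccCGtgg
Cdh20: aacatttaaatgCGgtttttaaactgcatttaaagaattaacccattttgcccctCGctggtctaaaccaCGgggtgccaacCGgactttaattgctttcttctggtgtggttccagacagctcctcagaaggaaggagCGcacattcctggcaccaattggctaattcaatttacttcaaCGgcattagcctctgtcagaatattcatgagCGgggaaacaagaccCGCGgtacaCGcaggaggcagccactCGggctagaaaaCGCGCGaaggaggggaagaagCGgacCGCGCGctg
Cdh10: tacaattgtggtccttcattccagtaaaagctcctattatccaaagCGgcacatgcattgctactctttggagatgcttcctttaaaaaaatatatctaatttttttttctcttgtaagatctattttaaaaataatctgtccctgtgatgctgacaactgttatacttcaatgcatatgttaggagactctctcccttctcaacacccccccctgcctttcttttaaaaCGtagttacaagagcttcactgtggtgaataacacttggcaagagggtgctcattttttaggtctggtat

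The Cdh22 window held 38 CpG dinucleotides and was 76.3% G+C. Cdh8 held 21 CpG, Cdh7 18 and Pcdh8 14, and the unmarked Cdh20 held 18, as many as Cdh7, and Cdh10 only 2. The CpG ratio (observed over expected from the C and G content of the same 300 bases) had a median of 0.65 over the 9 marked members with a listed promoter and 0.48 over the 13 unmarked ones, against 0.64 over all marked and 0.57 over all unmarked protein-coding genes. It ranged from 0.23 (Cdh23) to 0.87 (Cdh22) among marked members and from 0.19 (Cdh10) to 0.94 (Cdh20) among unmarked ones, so the sets overlap. A ratio of at least 0.6 was found at 6 of 9 marked members (66.7%), against 54.2% of all marked protein-coding genes. Among unmarked members it was found at 4 of 13 (30.8%, Cdh20, Cdh24, Pcdh9 and Pcdh18), against 47.8% of all unmarked protein-coding genes. Over all protein-coding genes, 10.9% of those with a ratio of at least 0.6 were marked, and 8.65% of those with a lower ratio. The listed starts of Pcdh15, Cdh12 and Cdh18 lie 725590, 662574 and 487565 bp inside the annotated span, so their windows do not describe its 5′ end. The E-box CACCTG was searched on both strands as CACCTG or CAGGTG because Snail and Zeb repressors bind it in the E-cadherin promoter. It was present in 2 of 9 marked members (22.2%, Cdh7 and Pcdh15), against 26.5% of all marked protein-coding genes with a listed promoter. Among unmarked members it was present in 1 of 13 (7.69%, Pcdh7), against 18.5% of all unmarked ones. The share over all listed protein-coding promoters was 19.3%.

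**Figure D5:**
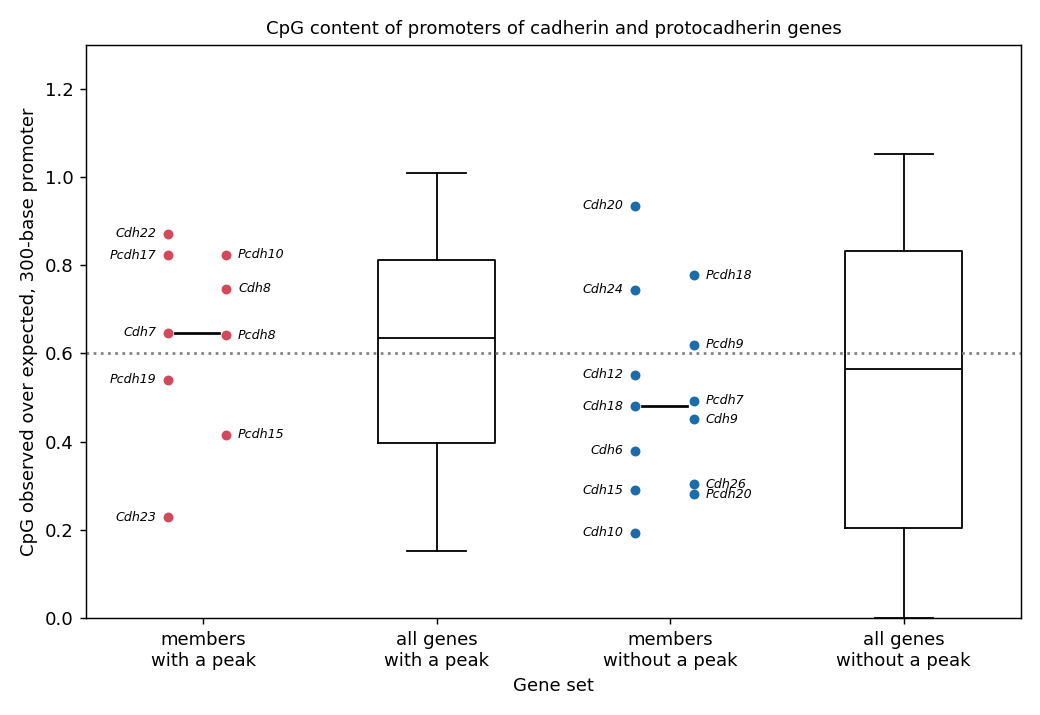
CpG observed over expected in the 300-base promoter window (y axis) of marked members (red) and unmarked members (blue), with all marked and all unmarked protein-coding genes as boxes (median, quartiles and whiskers at the 5 and 95 percentiles). Short lines are medians, the dotted line is a ratio of 0.6, and the member sets overlap between 0.23 and 0.87.

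By the call rule every unmarked member lies in a stretch without a peak, and for several of them this stretch was among the longest of the genome. The 5 type II genes Cdh6, Cdh9, Cdh10, Cdh12 and Cdh18 follow each other on chromosome 15 inside 1 peak-free stretch of 12.62 Mb (chr15:12739334-25363604), which ranked 6 by length of 5997 stretches between neighbouring peaks, whose median was 0.023 Mb. The whole chromosome had 2.04 peaks per Mb. Cdh20 lay in a stretch of 13.11 Mb (rank 5), Pcdh7 in one of 10.39 Mb (rank 9), Pcdh20 and Pcdh9 together in one of 10.16 Mb (rank 11), Cdh19 in one of 9.07 Mb (rank 19) and Pcdh18 in one of 8.28 Mb (rank 24). These 6 stretches, the ones among the 30 longest that hold members, held 11 of the 19 unmarked members. Of these 11, 5 are the chromosome 15 run. The matching share of all unmarked protein-coding genes was not computed, so the count has no background. The stretches are also poor in genes. The chromosome 15 stretch held 0.713 protein-coding genes per Mb, against 7.48 over its chromosome, and the one with Pcdh20 and Pcdh9 held 0.492, against 6.84. The part of gene density in these lengths was not tested. Cdh7 lies between the stretches of Cdh20 and Cdh19, and its peak is the only one in the 6.21 Mb from Cdh20 to Cdh19. Pcdh10 and Pcdh18 lie on the same chromosome, and the second peak of Pcdh10 borders the stretch that holds Pcdh18. The nearest peak to any unmarked member lay 5.2 kb from Cdh16. It was 32.8 kb away at Cdh26, 54.3 kb at Pcdh12, 102.5 kb at Cdh15, 151.3 kb at Cdh24, 341.5 kb at Cdh17, 395.9 kb at Cdh5 and 1754.9 kb at Cdh11, and Cdh5 and Cdh11 share a peak-free stretch of 5.12 Mb.

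Genes that work with cadherins, or belong to other branches of the superfamily, were marked at 19 of 56 (33.9%, 21.8 to 47.8), against 10.5% of all protein-coding genes, with a median span of 46.5 kb. Other cadherin superfamily genes had 11 of 19 marked (57.9%, 33.5 to 79.7), with the most reads at Celsr3, a seven-pass cadherin of planar polarity (99 reads, 4 peaks), at the giant cadherin genes Dchs2 (56 reads) and Dchs1 (46 reads), at Cdhr2 (29 reads) and at Ret, the GDNF receptor, whose extracellular part has cadherin-like domains (20 reads). Of 12 catenin and plakophilin genes, 4 were marked (33.3%), namely Pkp1 (42 reads), Pkp3 (35 reads), Ctnnd2 (25 reads) and Ctnna2 (22 reads). Ctnnb1, which encodes a catenin that binds the tail of classical cadherins, had no peak, nor did Ctnna1 or Ctnnd1. Of 9 desmosomal cadherins, 1 was marked (11.1%, close to the 10.5% of all protein-coding genes), Dsg2 with 34 reads. Of 9 transcription factor genes whose products repress Cdh1, 3 were marked (33.3%), namely Tcf4 (139 reads, 10 peaks), Twist1 (54 reads) and Twist2 (31 reads), and Snai1, Snai2, Zeb1 and Zeb2 were not. Of 7 nectin and junction partner genes, 0 were marked (a count that allows up to 42.9%). The 57 clustered protocadherins also had 0 marked by the span rule. The median annotated span of these genes was 90.3 kb. They lie in clusters, so they are not independent and no upper limit is given.

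As a check of the tissue label, peaks were counted at markers of cell types, beside the 10.5% of all protein-coding genes that were marked. Schwann cell markers had 3 of 8 marked, with 10 or 11 reads each, endothelial markers 0 of 5, fibroblast markers 1 of 5 (Pdgfra, 68 reads), skeletal muscle markers 1 of 5 (Acta1, 79 reads) and neuron markers 5 of 5, with 427 reads in all. Cdh5 and Cdh15 are members of the endothelial and muscle lists. Over the whole list of 6018 peaks the median peak held 14 reads and 643 bp, and at the members it held 15 reads and 667.5 bp. Peaks of 10 or 11 reads made up 30.4% of member peaks and 36.7% of the list.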

How the data were processed

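H3K27me3 ChIP-seq of sciatic nerve was deposited as 1 peak list. Bowtie and the build mm10 are named in the submitters' processing notes. How peaks were called, at what threshold and with what use of the input is not given in the sources. Each deposited peak has a score from the authors, whose meaning no header or label states. Whole multiples of 2.5735 matched 99.92% of scores to within 0.05, and each score was divided by this step and rounded to give reads. The ChIP library's depth in mapped reads is unknown.

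Peak positions were read as BED and are given 1-based. Genes came from a RefSeq table of GRCm38.p6, and strand and promoters from a RefSeq promoter table, which listed 22 of 34 members. Overlaps were computed with Python 3.11.15, numpy 2.4.6 and pandas 2.3.3, and checked on simulated peaks. Intervals (scipy 1.17.1) are exact Poisson for reads and exact Clopper-Pearson for shares, at 95%, and cover counting error only. For a share of 0, the largest share allowed was 3 counts of the total. With 1 ChIP library no tests were run. Neighbouring peaks and genes are not independent.

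Members and gene lists were chosen with earlier results of these data known. Every member is accounted for, each marked member is named with its values, and of each pathway list the marked genes with the most reads are named, up to 5. Alternatives varied the flank, the gene ends counted, the overlap, the peak threshold, the scaling of reads and the merging distance.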

Additional observations from a re-analysis of the deposited data

How the results depend on the processing

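No count of marked members changed when the flank was left out or set to 5 kb, when at least 50% of a peak had to lie inside, or, added after seeing the data, when peaks near another protein-coding gene were left out. With 2 kb on each side of the 5′ end, for genes with a strand, the counts were 8 of 22 members, 1222 of 17492 protein-coding genes, 7 of 34 pathway and superfamily genes, 0 of 1 type I cadherin and 0 of 2 other Cdh genes. With 2 kb at either end the other Cdh genes came to 0 of 5. With peaks of at least 20 reads the counts were 8 of 34 members, 1195 protein-coding genes, 12 of 56 pathway and superfamily genes, 1 of 5 type I cadherins and 2 of 8 delta protocadherins. Restricting to peaks with at least the median score, 2 of 5 type I cadherins were marked. The median width of the widest domain at marked members was 2190 bp with peaks merged within 5 kb and 857 bp within 1 kb, by construction. Scaling reads to the part of a peak inside the window gave 97.6 reads at Pcdh8, against 123, and stayed within the counting interval at the other 14 marked members. No paired analysis was possible because each group has 1 library and no test was run. At this depth, the absence of a peak does not show the absence of the mark, since the lowest peaks called held 10 reads.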
